A study of Mus musculus with 6 samples.

Results

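The 10 genes described here encode the transcription factors that set or hold the identity of the pancreatic acinar cell, the cell that makes digestive enzymes. They were chosen by name and not by a cut on measured values, with earlier results of these data known. They are Ptf1a, Rbpjl, Rbpj, Tcf3, Tcf12, Bhlha15, Gata4, Gata6, Spdef and Mecom. All 10 were found by symbol among the 23337 symbols of each count table, and all 10 were among the 13017 genes that passed the filter on low counts. RNA sequencing was done on whole pancreas of NMRI mice at postnatal day 7. The 3 mutant libraries carried Ptf1a cre/+ together with the transgene CAG-loxP-STOP-loxP-Prox1-LacZ, whose CAG promoter drives Prox1 and LacZ once Cre has cut out the loxP-flanked stop. The 3 control libraries came from Ptf1a cre/+ mice, so the Cre allele at Ptf1a is shared by both groups. The labels do not say how Cre was placed in the locus. Ptf1a is also active in early pancreas progenitors, so a Cre driven by it is not limited to mature acinar cells. The design text calls the controls pools and the mutants single organs, while the labels' protocol gives single pancreata for every sample. If the controls were pooled, pooling and genotype cannot be told apart.

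Ptf1a is a basic helix-loop-helix (bHLH) protein. It binds DNA in the PTF1 complex, together with a widely expressed bHLH partner, an E protein such as those encoded by Tcf3 and Tcf12, and a protein of the RBP-J family. In the embryonic pancreas that RBP-J subunit is Rbpj, which also carries the Notch signal, and in maturing acinar cells it is replaced by Rbpjl. PTF1 with Rbpjl binds the promoters of digestive enzyme genes and also its own subunit genes. Bhlha15 (Mist1) is a bHLH factor that builds the secretory apparatus, and Gata4 and Gata6 are zinc finger factors of the developing pancreas epithelium. Spdef is an ETS factor of secretory epithelia and Mecom is a zinc finger factor that has been linked to acinar cells under injury.

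The PTF1 complex recognises a paired site, an E-box bound by the bHLH proteins and a TC-box bound by the RBP-J protein. Promoter windows from RefSeq (build GRCm38.p6), which run from 250 bases before to 50 bases after an annotated start, were searched for the E-box CANNTG, which reads the same on either strand, and for the TC-box TTCCCA or its reverse complement TGGGAA. Windows were held for 8 of the 10 genes, 12 windows in all, with none used here for Gata4 and Gata6. The windows of Rbpjl, Ptf1a and Spdef are shown because Rbpjl alone had the paired arrangement, Ptf1a names the complex, and Spdef was the gene with the clearest difference between the groups. Capitals mark E-boxes and TC-boxes. The Rbpjl window lies at chr2:164402944-164403243 on the plus strand, the Ptf1a window at chr2:19445413-19445712 on the plus strand, and the Spdef window at chr17:27728902-27729201 on the minus strand.
Rbpjl: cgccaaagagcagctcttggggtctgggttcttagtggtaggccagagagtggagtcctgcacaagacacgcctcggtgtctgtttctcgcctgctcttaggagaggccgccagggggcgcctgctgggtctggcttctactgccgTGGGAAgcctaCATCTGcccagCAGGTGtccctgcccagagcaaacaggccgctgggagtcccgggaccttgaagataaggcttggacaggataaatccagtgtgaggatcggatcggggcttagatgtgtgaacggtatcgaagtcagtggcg
Ptf1a: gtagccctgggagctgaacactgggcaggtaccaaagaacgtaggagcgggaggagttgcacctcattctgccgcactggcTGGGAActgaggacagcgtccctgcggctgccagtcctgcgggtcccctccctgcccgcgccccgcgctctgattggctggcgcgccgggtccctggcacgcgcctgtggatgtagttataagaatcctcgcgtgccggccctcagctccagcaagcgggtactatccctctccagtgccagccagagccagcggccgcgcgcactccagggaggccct
Spdef: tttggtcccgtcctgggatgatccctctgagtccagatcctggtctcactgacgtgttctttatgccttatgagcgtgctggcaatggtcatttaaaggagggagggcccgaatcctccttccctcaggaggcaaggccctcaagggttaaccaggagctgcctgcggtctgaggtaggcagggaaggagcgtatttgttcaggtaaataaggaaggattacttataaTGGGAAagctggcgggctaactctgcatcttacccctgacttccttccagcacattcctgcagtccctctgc

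In Rbpjl the TC-box TGGGAA begins 104 bases before the start and is followed by the E-boxes CATCTG and CAGGTG, which begin 11 and 22 bases further on. None of the 3 motifs overlaps another. An E-box and a TC-box with starts 10 to 22 bases apart were found in 1 of the 12 windows, that of Rbpjl, and in 3.57% of all 32851 promoter windows. The Ptf1a window held a TC-box 169 bases before the start and no E-box, and the Spdef window held a TC-box 22 bases before the start and no E-box. Single motifs were common, with an E-box in 72.3% and a TC-box in 25.6% of all windows. A match describes letters in a window and was not tested as a bound site.

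Library totals lay between 7304727 and 10773223 counts, and 1 CPM (the count of a gene scaled to the TMM-adjusted library total) stood for 6.65 to 10.5 counts. Control 1 stood apart, with 7110 Xist counts and 0 counts of 4 Y-linked genes, where the other 5 libraries had 1 to 4 Xist counts and 1132 to 1463 Y-linked counts. Prox1, the gene of the transgene, was at 25.5, 31.3 and 30.9 CPM in mutant libraries 1 to 3, against 10.8, 7.84 and 9.13 CPM in control libraries 1 to 3, a 3.18-fold difference (edgeR adjusted p = 0.000239). The 6 acinar marker genes were detected in every library, and their summed level was 299000, 250000 and 305000 CPM in mutants against 336000, 312000 and 307000 CPM in controls. The groups of that sum did not overlap, and 1 of the 6 markers passed the test (Cel, lower). Cel also had the largest drop in mean CPM, from 66200 in controls to 34900 in mutants. With Cel left out, the sums of the groups overlapped. Cpa1 and Pnlip were lower without overlap too, while Ctrb1, Prss2 and Cela2a overlapped, with log2 fold changes of 0.00, 0.08 and -0.03. The part of the acinar share of the tissue in the results below was not tested. In whole tissue, fewer acinar cells and less RNA per acinar cell cannot be told apart. Nothing in the labels says how the libraries relate to litters, and p-values measure the spread between these 6 libraries.

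Of the 10 factors, 6 were lower in mutants with no overlap between the groups, namely Spdef, Rbpjl, Mecom, Ptf1a, Gata4 and Gata6, and 0 were higher without overlap. Over all genes tested, 9.86% were lower and 9.13% were higher without overlap. The difference passed the test across all genes in 1 of the 10, Spdef, where 2.06% of all genes passed in either direction, 1.51% as lower and 0.545% as higher. The median log2 fold change of the 10 factors was -0.28, against 0.00 for all genes tested, and 8 of the 10 values were below 0, against 49.1% of all genes. Scaled by library totals alone, all genes had a median of 0.17 and the 10 factors one of -0.12. Under that scaling 4 factors were lower without overlap (Rbpjl, Gata4, Spdef and Mecom, where 4.03% of all genes were) and Tcf12 was higher without overlap, as were 24.8% of all genes. The share of called genes that were higher was 26.5% with TMM and 59.4% with library totals alone.

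**Figure D1:**
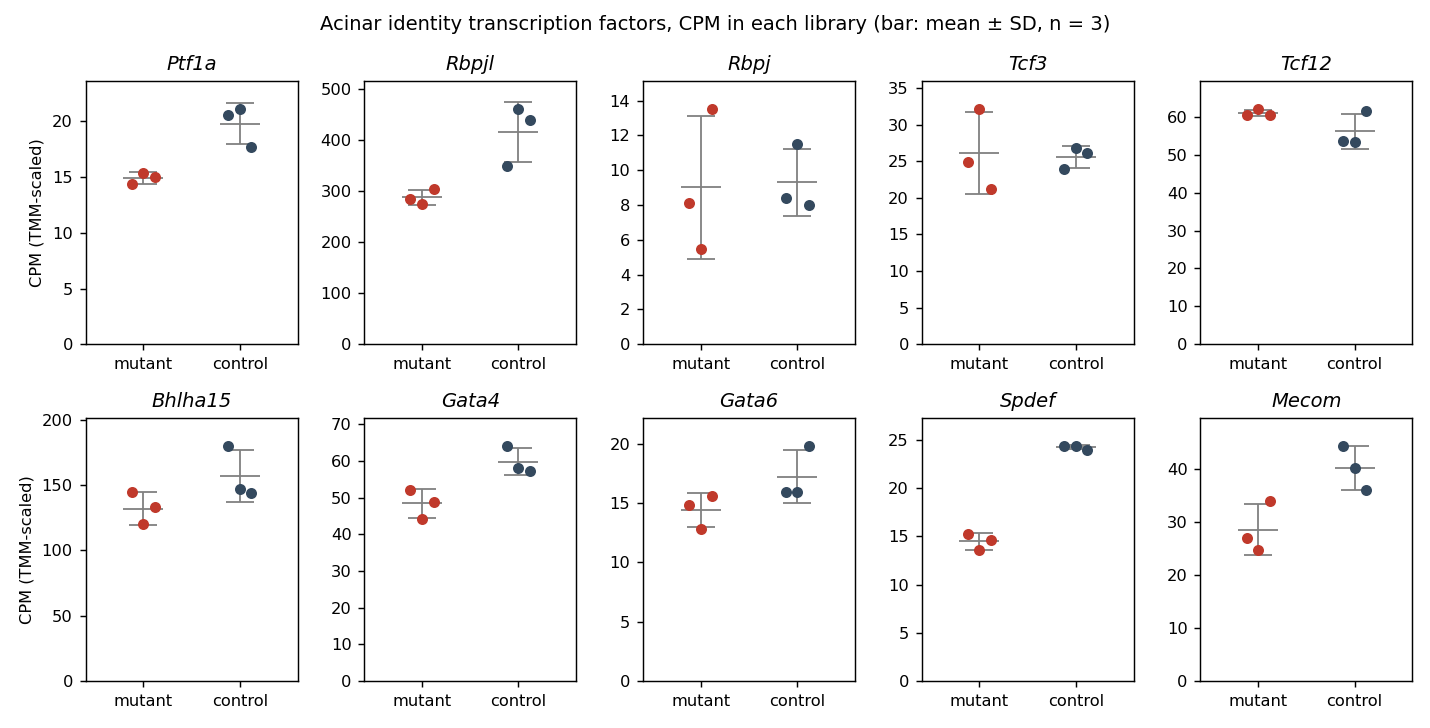
CPM of each of the 10 factors (vertical axis, starting at 0) in the mutant and control libraries, 1 point per library, with the mean and SD of 3. The points of the groups stand apart for Ptf1a, Rbpjl, Gata4, Gata6, Spdef and Mecom, and overlap for Rbpj, Tcf3, Tcf12 and Bhlha15.

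Ptf1a (chromosome 2, 19445663 to 19447501, GRCm38) was at 14.4, 15.4 and 15 CPM in mutants 1 to 3, against 20.6, 21.1 and 17.7 CPM in controls 1 to 3. Every mutant library was below every control library, and the mutants varied by 0.529 CPM (SD) around a mean of 14.9, the controls by 1.85 around 19.8. The log2 fold change was -0.40 ± 0.12 (SE, n = 3), or 24.4% lower, and missed the threshold after adjustment over all genes (edgeR adjusted p = 0.161). With library totals alone the log2 fold change was -0.24 and the groups overlapped. A library held 133 to 191 Ptf1a counts, so that counting alone gives up to 8.67% error. The SD of Ptf1a in mutants was smaller than counting alone would give, so it understates the noise. The antisense gene Ptf1aos overlaps 40.4% of the Ptf1a exon bases, and without a stated strand setting its reads could not be separated.

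Rbpjl (chromosome 2, 164403141 to 164415448), the acinar form of the RBP-J subunit, had the highest CPM of the 10 factors. It was at 285, 275 and 305 CPM in mutants 1 to 3, against 349, 461 and 439 CPM in controls 1 to 3. The groups did not overlap, and control 1 was the control nearest to the mutants. The log2 fold change was -0.53 ± 0.13 (SE, n = 3), or 30.7% lower, with a 95% interval of -0.82 to -0.24 and an edgeR adjusted p of 0.0863. Without control 1, the library with Xist RNA, it was -0.64 with an edgeR adjusted p of 0.0186. It missed the threshold in the other alternative edgeR fits, with -0.37 (edgeR adjusted p = 0.171) for library totals alone and -0.45 (edgeR adjusted p = 0.332) without control 2. The DESeq2 test gave an adjusted p of 0.000832 over all 6 libraries, where that test called 1.58% of genes as lower. The Rbpjl promoter is the window above with a TC-box and a pair of E-boxes.

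Rbpj (chromosome 5, 53466152 to 53657362), the ubiquitous form, was at 8.09, 5.45 and 13.5 CPM in mutants and 8.42, 11.5 and 7.98 CPM in controls. The mutant libraries spanned the whole range of the controls. The log2 fold change was -0.04 ± 0.29 (SE, n = 3; edgeR adjusted p = 0.98), with a 95% interval of -0.69 to 0.61, and it was 0.11 with library totals alone. Rbpj rested on 47 to 135 counts per library, and 10.6% of the 50-base stretches of its transcripts also occur in other genes, among them Rbpj-ps3, so its level is uncertain.

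Because Rbpjl and Rbpj fill the same place in the complex, their counts were compared within each library, where scaling has no effect. Rbpj is the ubiquitous form, so in whole pancreas the ratio also depends on the mix of cells. The ratio within acinar cells was not tested. There were 35.3, 50.5 and 22.6 Rbpjl counts per Rbpj count in mutants 1 to 3, against 41.4, 40.1 and 55.0 in controls 1 to 3. The log2 ratio was 5.10 ± 0.58 in mutants and 5.49 ± 0.25 in controls (SD, n = 3), a difference of -0.39 that did not pass a two-sided exact permutation test (p = 0.4, where 3 libraries against 3 cannot give less than 0.1). The mutant ratios were the more spread out, and mutant 3 had the lowest of the 6.

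Neither E protein gene was lower in mutants on average. Tcf3 (chromosome 10, 80409514 to 80433647) was at 24.9, 32.1 and 21.2 CPM in mutants and 23.9, 26.8 and 26.1 CPM in controls, and mutants 2 and 3 were the highest and the lowest of all 6 libraries. Its log2 fold change was 0.02, with a 95% interval of -0.32 to 0.35, and was -0.15 without mutant 2 and -0.03 without control 1. Tcf12 (chromosome 9, 71842688 to 72111871) was at 60.5, 62.0 and 60.6 CPM in mutants and 53.7, 53.4 and 61.5 CPM in controls. The mutants lay closer together than counting alone would give, and control 3 lay among them. The log2 fold change of Tcf12 was 0.12 with an interval of -0.10 to 0.33. Neither gene passed the test (edgeR adjusted p of 0.985 and 0.693). Around them, 0 of 5 genes for the further E protein Tcf4 and the Id proteins, which bind E proteins and keep them from DNA, were called, with a median log2 fold change of -0.02. Id4 had the smallest p among them, with a log2 fold change of -0.29 ± 0.37 (SE), and Id2, with 0.09 ± 0.13, came next.

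Bhlha15 (chromosome 5, 144190286 to 144194441) was at 145, 120 and 133 CPM in mutants and 180, 147 and 144 CPM in controls. Mutant 1 lay just above control 3, and control 1 stood highest. The log2 fold change was -0.24 ± 0.12 (SE, n = 3), with a 95% interval of -0.51 to 0.03 and an edgeR adjusted p of 0.466. For Bhlha15 that difference was -0.07 with library totals alone and -0.13 without control 1. Of 9 genes of granule transport, calcium and junctions that have been reported downstream of Bhlha15, 1 fell and 0 rose, with a median log2 fold change of -0.28. The gene that fell was Tmed6, which encodes a protein of early secretory vesicles. It was at 197, 232 and 203 CPM in mutants against 345, 317 and 305 CPM in controls (log2 fold change -0.61 ± 0.11, SE, n = 3; edgeR adjusted p = 0.0216). Rab26, Gjb1 and Copz2 were also lower without overlap between the groups, and did not pass the test. Among all genes tested, 1.51% were called as lower and 9.86% were lower without overlap.

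Gata4 (chromosome 14, 63198922 to 63271692) was at 52.0, 44.3 and 48.9 CPM in mutants and 64.1, 58.0 and 57.3 CPM in controls, a log2 fold change of -0.30 ± 0.10 (SE, n = 3; edgeR adjusted p = 0.218). Every mutant library was below every control library, and the Gata4 difference was -0.13 with library totals alone. Gata6 (chromosome 18, 11052064 to 11085635) was at 14.8, 12.8 and 15.6 CPM in mutants and 15.9, 15.9 and 19.8 CPM in controls. Its groups were separated only narrowly, and the log2 fold change was -0.26 ± 0.14 (SE, n = 3; edgeR adjusted p = 0.493). With library totals alone the Gata6 log2 fold change was -0.10 and its groups overlapped, and without control 3 it was -0.15. Both genes are also active in pancreatic mesenchyme, whose 7 markers had a median log2 fold change of -0.03 and summed to 3380 to 4820 CPM in mutants and 3150 to 5230 CPM in controls. Of 6 genes for Gata cofactors and other Gata factors, 3 were high enough to be tested and 0 were called. Among these Zfpm1, a cofactor that binds Gata proteins, had a log2 fold change of -0.18 ± 0.20 and Gata2 had 0.41 ± 0.51.

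Spdef (chromosome 17, 27714352 to 27728955) fell. It was at 15.3, 13.6 and 14.6 CPM in mutants 1 to 3, against 24.4, 24.4 and 24.0 CPM in controls 1 to 3. The groups were far apart relative to the spread within either, with SDs of 0.879 CPM in mutants and 0.210 CPM in controls. The log2 fold change was -0.74 ± 0.11 (SE, n = 3), or 40.2% lower, with an edgeR adjusted p of 0.00602. Spdef stayed past the threshold in all 11 alternative fits, with log2 fold changes between -0.78 and -0.58. Counting error alone reached 9.25% in the library with the fewest Spdef counts. Both SDs of Spdef, above all that of the controls, were smaller than counting alone would give, so they understate the noise. Of 8 genes reported downstream of Spdef in mucous cells or encoding related epithelial ETS factors, 7 were tested and 0 were called. Creb3l1, a membrane-bound factor of secretory cells, was at 14.4, 16.4 and 14.0 CPM in mutants and 19.2, 17.9 and 19.5 CPM in controls (log2 fold change -0.34 ± 0.12, edgeR adjusted p = 0.24). Agr2, a disulfide isomerase of mucous cells, was at 24.5, 20.4 and 23.4 CPM in mutants and 65.6, 22.1 and 38.6 CPM in controls, with control 1 highest and the groups overlapping.

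Mecom (chromosome 3, 29951296 to 30548008) was at 27.0, 24.8 and 34.0 CPM in mutants and 44.4, 40.3 and 36.0 CPM in controls. Mutant 3 came close to control 3, and the other libraries were well apart. Mecom had a log2 fold change of -0.48 ± 0.14 (SE, n = 3), or 28.5% lower, with an edgeR adjusted p of 0.128. Mecom is also made in endothelium and duct. The 5 blood endothelial markers had a median log2 fold change of 0.03 and summed to 191 to 208 CPM in mutants and 185 to 198 CPM in controls. The 6 duct markers had a median of -0.43 and summed to 324 to 406 CPM in mutants and 472 to 497 CPM in controls, a lower level without overlap. Most of that sum was Spp1, at 246 to 307 CPM in mutants and 344 to 388 CPM in controls, while Cftr, a chloride channel of duct cells, was higher in mutants without overlap (log2 fold change 0.78 ± 0.28, SE, n = 3; edgeR adjusted p = 0.264). The part of duct cells in the Mecom difference was not tested.

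**Figure D2:**
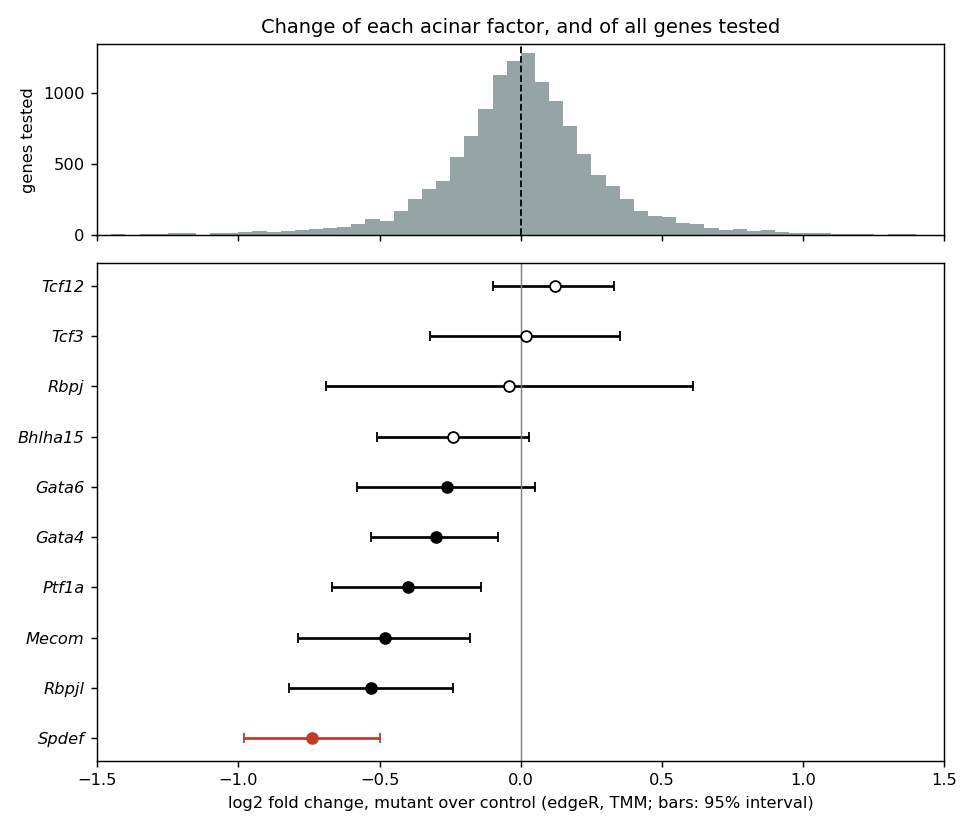
Lower panel, the log2 fold change of each factor (mutant over control) with its 95% interval, filled where the groups do not overlap and red where the edgeR test was passed. Upper panel, the number of genes tested per bin of the same scale, with 12850 of 13017 genes inside the axis and a dashed line at the median of 0.00. Spdef at -0.74 lies farthest from the bulk of genes, and 8 of the 10 factors lie below 0.

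Levels were compared between genes as CPM per kilobase of annotated exon. Rbpjl stood first with 50.3 ± 2.6 in mutants and 72.6 ± 10.4 in controls (SD, n = 3). Bhlha15 followed with 37.9 ± 3.56 in mutants and 44.8 ± 5.70 in controls. Gata4 had 12.4 ± 0.988 in mutants and 15.3 ± 0.953 in controls, and Ptf1a 9.90 ± 0.351 in mutants and 13.1 ± 1.22 in controls. These first 4 places were the same in both groups, and no neighbours among them overlapped in their ranges. Spdef and Tcf3 came next. In controls Spdef, at 10.5, was above Tcf3, at 6.35, with no overlap, while in mutants Tcf3, at 6.45, and Spdef, at 6.29, overlapped. Below them stood Tcf12, Mecom, Gata6 and, last in both groups, Rbpj with 0.706 ± 0.321 in mutants and 0.729 ± 0.150 in controls. Neighbouring ranges overlapped between Mecom and Gata6 in both groups and between Tcf12 and Mecom in controls. The summed exons of Tcf12 span 15.5 kilobases and its longest coding transcript 6.30, and per length of that transcript Tcf12 stood above Tcf3 in both groups, and above Spdef in mutants (9.69 against 7.55).

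**Figure D3:**
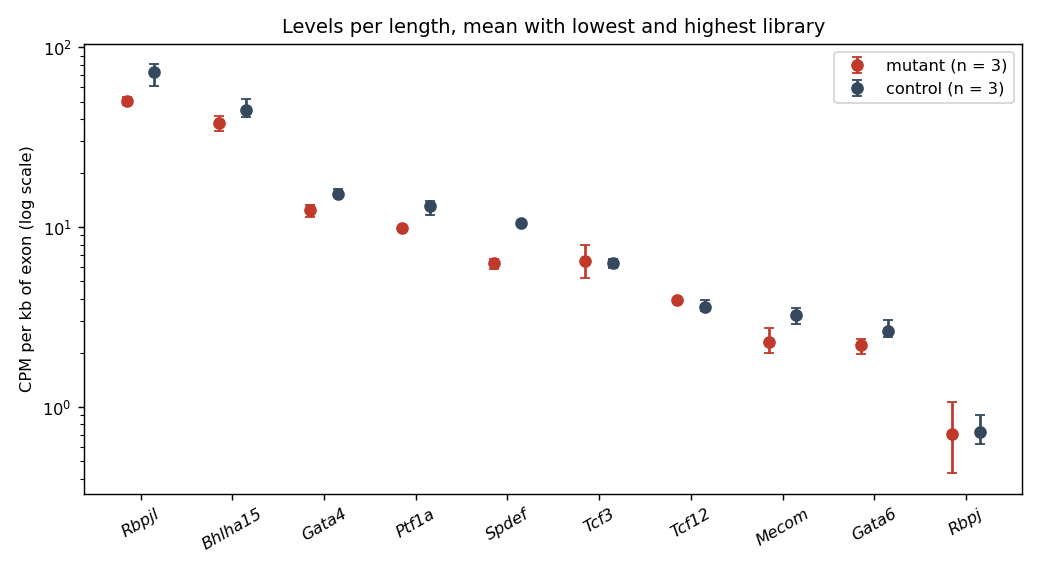
CPM per kilobase of exon (log scale) for the 10 factors, ordered by the control mean, with the mean of 3 libraries as a point and the lowest and highest library as a bar. Rbpjl and Bhlha15 stand above all others, Rbpj stands lowest, and the Spdef points of the groups are apart, at 6.29 in mutants and 10.5 in controls.

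Of 15 other transcription factors of acinar and secretory cells, 0 were called by edgeR, and the smallest adjusted p was 0.0903, that of Hnf4a. Hnf4a, a nuclear receptor of epithelia, was at 12.8, 16.2 and 16.7 CPM in mutants and 25.9, 20.2 and 22.1 CPM in controls. Xbp1, a regulator of secretory capacity, was at 278, 290 and 321 CPM in mutants and 383, 399 and 410 CPM in controls. Hnf4a had a log2 fold change of -0.57 ± 0.15 and Xbp1 one of -0.42 ± 0.11 (SE, n = 3). The list had 6 members lower without overlap, among them Hnf4a, Xbp1, Creb3l1, Nr0b2 and Myrf, against 9.86% of all genes tested. It had 0 members higher without overlap, against 9.13% of all genes tested, and a median log2 fold change of -0.09. Nr5a2, an orphan receptor that works with PTF1 at enzyme promoters, was at 51.3, 44.1 and 54.8 CPM in mutants and 50.2, 54.5 and 55.2 CPM in controls.

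Digestive enzyme and granule genes spread over a wider range than the factors, and their binding by PTF1 was not measured. Of 22 digestive enzyme and granule genes, 21 were tested, 6 fell and 0 rose, with a median log2 fold change of -0.30. The shares called among all genes tested were 1.51% as lower and 0.545% as higher. Without overlap, 12 of the list were lower and 1 was higher, against 9.86% and 9.13% of all genes tested. Ctrl, a chymotrypsin-like protease, was at 6.95, 2.32 and 2.00 CPM in mutants, against 16400, 9510 and 13800 CPM in controls. Gp2, the granule membrane glycoprotein, was at 9.14, 13.7 and 12.2 CPM in mutants, against 459, 636 and 795 CPM in controls. The other 4 that fell were Zg16, a granule lectin (log2 fold change -4.79 ± 0.33, SE, n = 3), Pnliprp2, a lipase (-3.11 ± 0.21), Rnase1, a ribonuclease (-2.91 ± 0.20), and Cel, the bile-salt lipase (-0.93 ± 0.15). The gene that was higher without overlap was Ctrc, at 359, 309 and 502 CPM in mutants, against 138, 199 and 242 CPM in controls. Its log2 fold change was 1.02 ± 0.22 (SE, n = 3), and an edgeR adjusted p of 0.0524 left Ctrc short of the threshold. Ctrb1 (0.00) and Prss2 (0.08), which encode a chymotrypsin and a trypsin, did not pass the test and had values near 0 on the log2 scale. The log2 fold changes of the 10 factors spanned -0.74 to 0.12, whereas those of the 21 enzyme and granule genes spanned -11.76 to 1.02. The low end of that range was Ctrl, and the medians lay close, at -0.28 for the factors and -0.30 for the enzyme and granule genes.

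**Figure D4:**
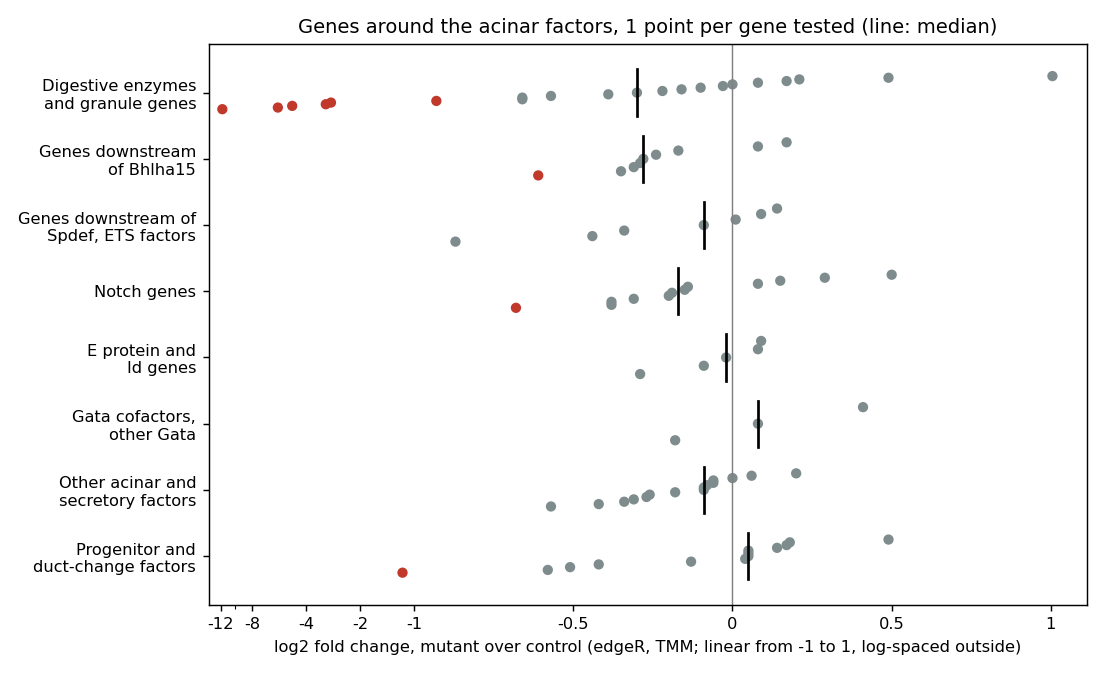
Log2 fold change (mutant over control) of each tested gene of 8 lists, red where the edgeR test was passed, with a line at each list's median; the axis is linear between -1 and 1 and log-spaced outside. Digestive enzyme and granule genes span -11.76 to 1.02, while the other 7 lists lie between -1.16 and 0.5.

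Among Notch genes, which share Rbpj with the PTF1 complex, 1 of 12 fell and 0 rose, with a median log2 fold change of -0.17. Jag1, a Notch ligand, was at 18.9, 19.5 and 18.9 CPM in mutants and 29.2, 29.8 and 32.5 CPM in controls (log2 fold change -0.68 ± 0.10, SE, n = 3). Hes1 and Heyl, Notch targets, were lower without overlap and did not pass the test. Maml2, a co-activator, was higher without overlap and did not pass. Among all genes tested, 1.51% were called as lower, and 9.86% were lower and 9.13% higher without overlap. Of 15 factors of progenitors and of acinar-to-duct change, 13 were tested, 1 fell and 0 rose, with a median of 0.05. Pdx1, a factor of progenitors and beta cells, was at 3.62, 3.13 and 3.99 CPM in mutants and 10.4, 7.07 and 7.02 CPM in controls. The duct factor Sox9 was at 16.5, 16.8 and 14.2 CPM in mutants and 22.9, 18.7 and 22 CPM in controls and did not pass the test.

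Markers of other cell types were summed in the same libraries. The 5 macrophage markers had a median log2 fold change of 0.53 and summed to 178 to 200 CPM in mutants and 106 to 146 CPM in controls. Of them Mrc1, a mannose receptor, rose (log2 fold change 0.53 ± 0.11, SE, n = 3; edgeR adjusted p = 0.0419). The 5 adipocyte markers summed to 39.3 to 55.2 CPM in mutants and 70.1 to 123 CPM in controls, with Fabp4 as the 1 that fell. Lymphocyte markers were uneven within groups, at 1.33 to 25.2 CPM in mutants and 1.5 to 11.6 CPM in controls, and erythroid markers were at 108 to 242 CPM in mutants and 174 to 675 CPM in controls. The 6 islet markers summed to 3050 to 3350 CPM in mutants and 2980 to 4850 CPM in controls, and of them Chga, a granule protein of endocrine cells, was lower without overlap and did not pass the test (log2 fold change -1.05 ± 0.25, SE, n = 3; edgeR adjusted p = 0.0732). The part of these cells in the differences of the 10 factors was not tested.

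For 4 of the factors, the genes with the most similar profile were sought among 10034 genes with a mean of at least 5 CPM, as the root mean square difference of log2 CPM over the 6 libraries after centring each gene. The genes nearest to Ptf1a were Gstm5, a glutathione transferase (0.0244), Cdk2ap2 (0.0346) and 1190007F08Rik (0.0433). The nearest to Rbpjl were Exph5 (0.0604), Trim11 (0.0629) and Recql5 (0.0756). The nearest to Bhlha15 were Ugp2 (0.0246), Me2 (0.0317) and Itga6 (0.0327), and those to Spdef were Gpr125 (0.0559), Fam171a2 (0.0783) and Rgnef (0.0885). Gata4 was at place 23 for Bhlha15 (0.0625). Gata4 was at place 288 for Ptf1a and Rbpjl at place 1335, and Ptf1a at place 332 for Rbpjl. The order of the nearest genes was not tested against counting error, which reached 8.67% for Ptf1a and 9.25% for Spdef. A near place was not tested as a shared control of the genes.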

How the data were processed

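Whole pancreas RNA of 3 mutant and 3 control mice or pools was sequenced; the design text names a TruSeq mRNA preparation. The deposited values are whole-number counts per gene symbol, 1 file per library, and no row holds unassigned reads. STAR, HTSeq 0.6.1p1, cutadapt 1.13 and DESeq2 are listed, with build mm10, per the submitters' processing notes. The annotation and strand setting were not stated in the labels.

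The counts were tested with edgeR 4.0.16 in R 4.3.3 (quasi-likelihood test, TMM scaling, filterByExpr defaults, no covariate), with Benjamini-Hochberg adjustment over all 13017 genes tested and a threshold of 0.05. The SE is the size of the log2 fold change over the root of F. DESeq2 1.42.0 was an alternative, and the edgeR fit was tested on simulated data. Coordinates and exon lengths came from GENCODE M21 (GRCm38) and promoter windows from RefSeq. Log2 CPM for profile likeness used a prior count of 2. The 10 factors, the gene lists and the tests were chosen with earlier results of these data known. All 10 factors and Prox1 were named, and from each of the 8 gene lists the called genes or else the 2 with the smallest p. The cell type marker lists were not under that rule, and other genes were named after their values were seen. Older symbols in the files were matched through RefSeq synonyms, and Hbb-bt had no match. Intervals of counting error cover counting only.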

Additional observations from a re-analysis of the deposited data

How the results depend on the processing

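Depth limits Rbpj most, with 47 to 135 counts per library and a counting error of up to 14.6%, followed by Gata6 (up to 9.71%), Spdef (9.25%) and Ptf1a (8.67%). The number of called genes was 268, and it lay between 125 and 301 when 1 library was left out, with 125 without control 2, 139 without mutant 1, 140 without control 3 and 178 without mutant 3. Of the 10 factors 1 was called, Spdef, and 2 were called with DESeq2 (322 genes in all), Rbpjl being the other. Leaving out 1 library gave between 1 and 2, with Rbpjl as the other without control 1. Lower without overlap were 6 factors (9.86% of all genes tested), and 4 with library totals alone (4.03%). When 1 library was left out, they were between 6 and 7, while the share of all genes rose to between 13.4% and 15.8%. The count without overlap was added after the data were seen. The direction of Rbpj turned to 0.11 with library totals alone and lay between -0.45 and 0.22 when 1 library was left out, and that of Tcf3 lay between -0.15 and 0.14 when 1 library was left out. The other 8 factors kept their direction in the 11 alternatives. The Rbpjl to Rbpj difference in log2 ratio lay between -0.67 and -0.09 when 1 library was left out. Same-numbered libraries did not deviate together (correlations of -0.063 to -0.001 over genes), so the numbers were not taken as pairs. With a replicate block 241 genes and 1 factor were called, and the paired ratio difference was -0.39 (exact sign-flip p = 0.75).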

Other observations

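A pair of further within-library ratios was computed after the values had been seen, giving 3 ratios with that of Rbpjl to Rbpj. Per count of the E protein genes Tcf3 and Tcf12 together, Ptf1a had 0.169, 0.164 and 0.183 counts in mutants 1 to 3, against 0.266, 0.263 and 0.202 in controls 1 to 3. The groups did not overlap, and the difference in log2 ratio was -0.49 (two-sided exact permutation p = 0.1, the smallest that 3 libraries against 3 allow, and 0.3 adjusted over the 3 ratios). Rbpjl had 19.8, 17.8 and 20.3 counts per Ptf1a count in mutants and 16.9, 21.8 and 24.8 in controls, with overlapping groups and a difference of -0.12 (exact permutation p = 0.5). These ratios do not depend on the scaling of the libraries, but they can depend on the mix of cells in whole pancreas.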
